A study of Rattus norvegicus with 14 samples.

Results

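The mitochondrial genome gave 512 CpG cytosines that could be compared between rat oesophagus before and after repair with a silk fibroin graft. They were every cytosine listed on chrM (build mRatBN7.2) in at least 3 files of each of 3 groups. The files listed 610 mitochondrial cytosines in all, and 98 of them were read in too few libraries to be kept. The same rule kept 514813 of 12363002 cytosines over all chromosomes. The rule used only whether a cytosine was listed, which requires at least 5 reads in these files, so methylation levels did not enter the choice.

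Mitochondrial DNA is a small circular molecule present in many copies per cell. It encodes subunits of the respiratory chain together with the ribosomal and transfer RNAs needed to translate them, and its copy number differs widely between cell types. In nuclear DNA, most CpG cytosines outside CpG-dense promoters carry a methyl group on both strands. Whether mammalian mitochondrial DNA carries CpG methylation is debated, and reported levels are low. Bisulfite turns unmethylated cytosine into uracil, so a cytosine counted as methylated is one that was still read as cytosine after this treatment. The nuclear genome also holds copies of mitochondrial segments, and reads from such copies could not be told apart from mitochondrial reads in these counts.

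The samples were oesophageal tissue from male rats aged 8 to 9 weeks, assayed by reduced-representation bisulfite sequencing (DNA cut by MspI, with fragments above 300 bp removed, then bisulfite-converted). NSC were non-surgical controls, taken as full-thickness oesophagus (4 libraries). Day 1 was host tissue punched from within 2 mm around the defect 1 day after repair with an acellular bi-layer silk fibroin scaffold (5 libraries). Week 1 was new tissue taken from the graft area after 1 week (4 libraries, with 1 further Week 1 sample not analysed here). The groups therefore differ in the tissue sampled as well as in time after surgery. Replicates are numbered in accession order. Whether the libraries came from different animals is not given in the labels, and the p-values below therefore reflect only how far these libraries vary, which may be technical. Sample codes run in group order, so any effect of processing order cannot be told apart from group.

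Each library listed between 472 and 512 of the kept cytosines, and 427 were listed in all 13 files. The files held 728779, 334813, 356776 and 191503 mitochondrial CpG reads in NSC replicates 1 to 4. Day 1 replicates 1 to 5 held 51884, 51063, 83060, 71413 and 116572, and Week 1 replicates 1 to 4 held 35804, 29116, 43128 and 25709. The median coverage of a kept cytosine fell between 173 and 656 reads in NSC, from 49.5 upward in Day 1, with 90 in the middle library, and between 22 and 61.5 in Week 1. At 22 reads a single methylated read moves a cytosine's level by several percentage points, so Week 1 levels of single cytosines were the least precise. Intervals below are exact (Clopper-Pearson) 95% binomial intervals and cover counting error only. One read can span several cytosines, so the reads they count are not all independent.

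Kept cytosines were spread from position 204 to position 16243, but unevenly. Consecutive positions p and p+1 were read as the plus-strand and minus-strand cytosine of the same CpG. The counts carry no strand label and no sequence was available, so this assignment, on which all strand results rest, was not checked. Of the 512 cytosines, 217 were on the plus strand, 292 on the minus strand and 3 could not be assigned. Of the 98 that were not kept, 84 were on the plus strand and 9 on the minus strand, although the files listed 301 on each strand. The loss to low coverage therefore fell mainly on the plus strand.

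Coverage was highest in the window from position 15001 to 16000 and low in most others. Each library's mean reads per cytosine in a 1000 bp window were divided by its mean over all kept cytosines. In the 15001 to 16000 window this ratio was 3.43 in NSC, 2.98 in Day 1 and 2.52 in Week 1 (group means, n = 4, 5 and 4). The window from 8001 to 9000 came next, at 2.21, 1.90 and 2.24. The first 1000 bp had the lowest ratio in NSC, 0.324, against 0.480 in Day 1 and 0.433 in Week 1. The 3 cytosines with the highest median coverage over libraries, 15568, 15461 and 15693, were all on the minus strand, with medians of 1357, 1330 and 1329 reads. The 3 with the lowest median coverage were 9683 on the plus strand (15 reads), 12876 on the minus strand (16.5) and 10562 on the plus strand (16.5).

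**Figure D1:**
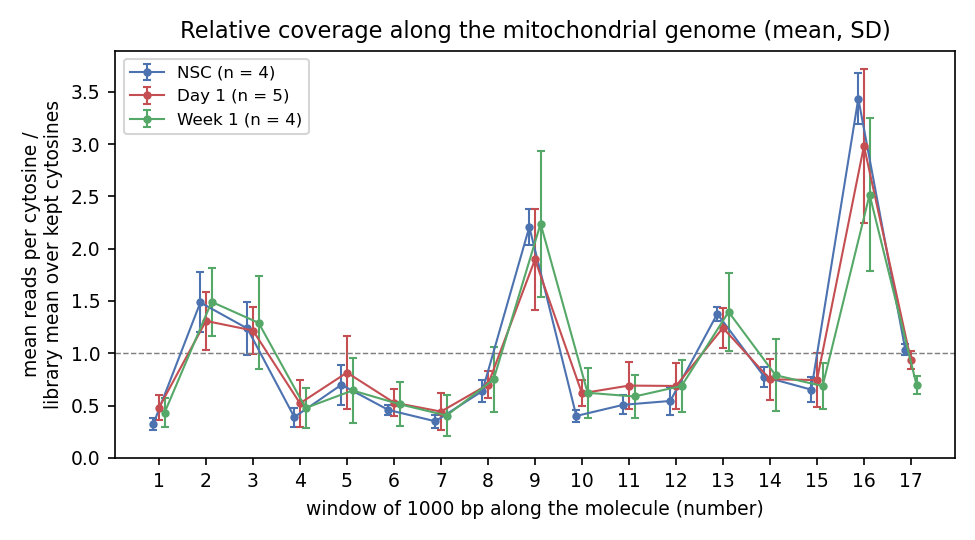
Mean reads per kept cytosine in each of 17 windows of 1000 bp, divided by the library's mean over all kept cytosines, as group mean and SD for NSC (n = 4), Day 1 (n = 5) and Week 1 (n = 4). All 3 groups peak in window 16 (3.43, 2.98 and 2.52) and window 9 (2.21, 1.90 and 2.24).

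The shape of the coverage profile was similar between libraries. Over the 427 cytosines listed in all files, Pearson's r of log2 coverage between library pairs ran from 0.629 to 0.980 with a median of 0.878. These cytosines share fragments and base composition, so r is given as a description. Day 1 replicate 2 was the least like the others, with a median r of 0.734. It also had one of the flattest profiles: the coefficient of variation of its coverage was 0.973, against 1.20 to 2.08 in the other Day 1 libraries and 1.67 to 1.90 in NSC. Only Week 1 replicate 2 was flatter, at 0.958.

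The minus strand was read about 3 times as deeply as the plus strand in every library. The mean log2 ratio of minus to plus reads over the strand pairs listed in a library was 1.73, 1.78, 1.72 and 1.82 in NSC replicates 1 to 4. It was 1.72, 1.48, 1.68, 1.54 and 1.48 in Day 1 and 1.58, 1.57, 1.32 and 1.32 in Week 1. The mean over libraries was 1.60, or 3.02-fold, and the ratio was above 0 in 13 of 13 libraries (exact two-sided sign-flip permutation test, p = 0.000244, the smallest that 13 libraries allow). Among the 217 pairs, the minus strand was deeper in 186 by the median over libraries and in 154 in every library that listed both. The reverse held in every library for 8 pairs.

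The strand imbalance was smaller after surgery than in NSC when each library's own listed pairs were used. Day 1 was 0.18 lower than NSC on the log2 scale (1.58 against 1.76, exact two-sided permutation p = 0.0159, adjusted over 3 contrasts 0.0429), and Week 1 was 0.32 lower (1.45 against 1.76, p = 0.0286, adjusted 0.0429). Neither group overlapped NSC. The difference did not pass after adjustment on the pairs listed in all files, where it was -0.11 for Day 1 (exact p = 0.0794, adjusted 0.119) and -0.23 for Week 1 (exact p = 0.0286, adjusted 0.0857). Day 1 and Week 1 overlapped, with a difference of -0.13 (exact p = 0.159).

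The mitochondrial share of all CpG reads was lower after surgery than in NSC. It was 1.46%, 0.824%, 1.10% and 0.733% in NSC replicates 1 to 4. In Day 1 replicates 1 to 5 it was 0.153%, 0.528%, 0.470%, 0.226% and 0.347%, and in Week 1 replicates 1 to 4 it was 0.178%, 0.257%, 0.357% and 0.0984%. The lowest NSC library lay above the highest Day 1 and Week 1 libraries, and the widest binomial interval of any share was 0.00914 percentage points. The group means were 1.03 ± 0.329% (SD, n = 4), 0.345 ± 0.158% (SD, n = 5) and 0.223 ± 0.111% (SD, n = 4). On the log2 scale Day 1 was 1.67 below NSC, so that NSC was 3.18-fold higher (exact two-sided permutation p = 0.0159, adjusted 0.0429), and Week 1 was 2.31 below, with NSC 4.96-fold higher (p = 0.0286, adjusted 0.0429). These are the smallest p-values that 5 against 4 and 4 against 4 libraries allow. Week 1 and Day 1 overlapped and differed by -0.64 (exact p = 0.286).

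**Figure D2:**
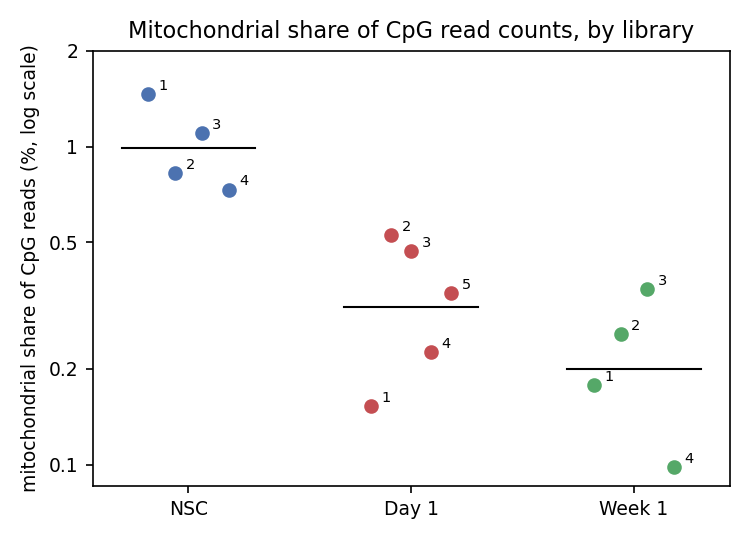
Mitochondrial share of all listed CpG reads (percent, log scale), 1 point per library labelled with its replicate number; horizontal lines are geometric means. The 4 NSC libraries lie between 0.733% and 1.46%, above every Day 1 library (0.153% to 0.528%) and every Week 1 library (0.0984% to 0.357%).

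The share depended on which nuclear cytosines formed the denominator. Over the 427 mitochondrial and all other cytosines listed in all 13 files, the share was 7.90% to 16.9% in NSC, 1.98% to 6.61% in Day 1 and 1.30% to 3.47% in Week 1, again without overlap with NSC. Over the cytosines kept by the rule, Day 1 replicate 2 was at 4.46%, inside the NSC range of 1.92% to 4.75%, while the other 4 Day 1 libraries lay between 0.441% and 1.27%. The Day 1 difference was then -1.27 on the log2 scale and did not pass (exact p = 0.111). With at least 10 reads per cytosine it was -1.10 (exact p = 0.175). The Week 1 difference did not pass after adjustment under either choice (-2.49 and -1.83, exact permutation test, adjusted p = 0.0857 for both). Its unadjusted p stayed at 0.0286, the smallest that 4 against 4 libraries allow. The adjusted value rose because the Day 1 p in the same adjustment rose. Leaving out any 1 of the 4 NSC libraries gave an adjusted p of 0.0857 for both groups (exact permutation test). With 1 NSC library fewer no adjusted p below 0.05 can be reached, so these runs cannot show whether the calls hold. The log2 differences then ran from -1.81 to -1.48 in Day 1 and from -2.46 to -2.12 in Week 1. Day 1 replicate 2 was the shallowest file, with 9676493 CpG reads in all against up to 49782600. The part of this depth in the share was not tested. In bulk tissue, fewer cells rich in mitochondria and less mitochondrial DNA per cell cannot be told apart.

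Mitochondrial cytosines were read as almost fully unmethylated in 11 of the 13 libraries. The mean methylation level over kept cytosines was 0.234%, 0.245%, 0.384% and 0.353% in NSC replicates 1 to 4 and 0.381%, 0.283%, 0.227% and 0.447% in Week 1 replicates 1 to 4. In Day 1 it was 2.38% and 3.005% in replicates 1 and 2, and 0.414%, 0.182% and 0.243% in replicates 3 to 5. Day 1 replicates 1 and 2 stood above all other libraries, and Day 1 replicates 3 to 5 lay between 0.182% and 0.414%, around the NSC range. Weighted by reads, the levels were 0.536% (95% interval 0.475% to 0.603%) and 1.51% (1.41% to 1.63%) in Day 1 replicates 1 and 2, against 0.165% to 0.308% elsewhere.

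No group difference in mean methylation passed the test. The Day 1 mean was 1.24 ± 1.34% (SD, n = 5), against 0.304 ± 0.0756% (SD, n = 4) in NSC and 0.334 ± 0.0983% (SD, n = 4) in Week 1. Day 1 exceeded NSC by 0.940 percentage points (exact two-sided permutation p = 0.349). Without Day 1 replicates 1 and 2 the difference was -0.0245 points (exact p = 0.8). Week 1 differed from NSC by 0.0303 points (exact p = 0.657) and from Day 1 by -0.909 points (exact p = 0.444), or by 0.0548 points without Day 1 replicates 1 and 2. All 3 adjusted p-values were 0.657. The raised level was seen in 2 of the 5 Day 1 libraries, and the Day 1 mean rests on them.

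The level in Day 1 replicates 1 and 2 was raised far more on the plus strand than on the minus strand. Plus-strand cytosines averaged 4.95% and 6.01% in these libraries, and minus-strand cytosines 0.587% and 0.782%. In the other 11 libraries the plus strand lay between 0.133% and 0.640% and the minus strand between 0.174% and 0.444%, so the minus strand of the raised libraries also lay above the others. The plus strand held 54.2% and 68.1% of the methylated reads of replicates 1 and 2 but 28.7% and 20.8% of their reads. In Day 1 replicates 3 to 5 it held 39.3%, 28.5% and 24.7% of the methylated reads and 26.1%, 25.7% and 26.7% of all reads.

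**Figure D3:**
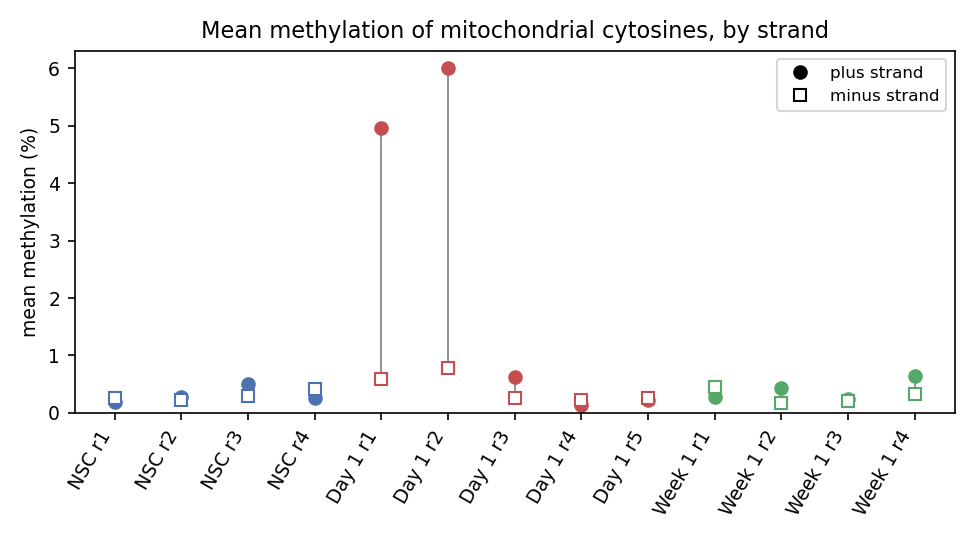
Mean methylation (percent) of kept plus-strand (filled circles) and minus-strand (open squares) mitochondrial cytosines in each of the 13 libraries, joined by a line. Only Day 1 replicates 1 and 2 show a wide gap, 4.95% against 0.587% and 6.01% against 0.782%.

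Averaged over strand pairs, minus methylation was below plus methylation in 12 of 13 libraries. The mean of minus methylation less plus methylation was -4.42 and -5.29 percentage points in Day 1 replicates 1 and 2. In the other 11 libraries it ran from -0.404 to 0.0601 points, with Day 1 replicate 4 the exception above 0. The mean over libraries was -0.873 points (exact two-sided sign-flip permutation test, p = 0.00171), and it was -0.149 points without Day 1 replicates 1 and 2 (exact p = 0.00684). Leaving out only Day 1 replicate 1 gave -0.577 points and leaving out only replicate 2 gave -0.505. Taking the median over pairs in place of the mean removed the call (-0.292 points, exact p = 1). The means therefore do not describe the typical pair. No contrast between groups in the strand difference passed, with exact p-values from 0.190 to 0.349.

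The 3 pairs with the largest mean absolute strand difference were led by plus positions 13098, 13579 and 2958. At 13098, Day 1 replicate 2 had 11 methylated of 23 reads, and its minus partner 13099 had 1 of 130. At 2958, Day 1 replicates 1 and 2 had 5 of 10 and 4 of 39 reads, and the partner 2959 had none of 81 and none of 129. At 13579 the methylated reads came from other libraries: Day 1 replicates 3 and 4 had 2 of 19 and 3 of 37, and Week 1 replicates 1 and 4 had 2 of 13 and 3 of 10. These pairs were read 32, 28 and 32 times in the median on the plus strand.

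The raised cytosines were also the thinly covered ones. The 512 cytosines were divided into 4 quartiles of equal size by their median coverage in NSC, whose first holds 123 plus-strand and 5 minus-strand cytosines. From the first to the fourth quartile, 6.46%, 1.18%, 0.548% and 0.216% of reads were methylated in Day 1 replicate 1. In Day 1 replicate 2 the values were 6.92%, 2.27%, 0.891% and 0.575%. The first-quartile intervals were 5.26% to 7.83% and 6.17% to 7.73%, on 1486 and 4189 reads, and the fourth-quartile intervals were 0.171% to 0.269% and 0.480% to 0.682%. In Day 1 replicate 1 the fourth quartile was thus as low as the 0.217% of the highest NSC library there, while in replicate 2 it stayed above it.

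In most other libraries the first quartile was above the fourth by less. Day 1 replicate 3 went from 1.03% in the first quartile to 0.172% in the fourth, replicate 5 from 0.728% to 0.124%, and replicate 4 from 0.141% to 0.187%. In Day 1 replicate 5, 32 of the 46 first-quartile methylated reads lay at the single minus-strand position 8686. In NSC replicate 4, 20 of the 33 lay there, and its plus-strand first-quartile level, 0.225%, was close to its fourth-quartile level of 0.217%. The first quartile was at 0.338% to 0.718% in NSC and at 0.350% to 0.809% in Week 1.

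**Figure D4:**
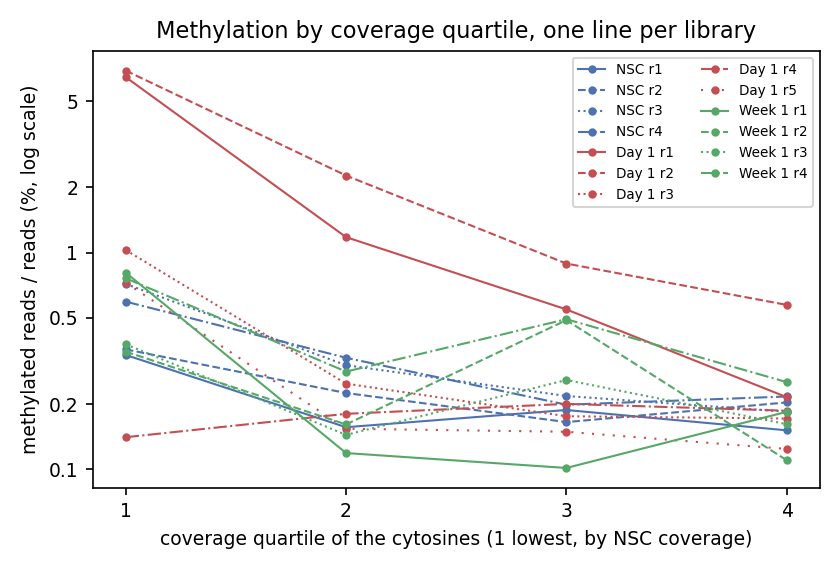
Methylated reads as a percentage of all reads (log scale) in each quartile of mitochondrial cytosines ranked by NSC coverage (1 lowest, equal numbers of cytosines), 1 line per library. Day 1 replicates 1 and 2 start at 6.46% and 6.92% and fall to 0.216% and 0.575%, and all other libraries start at or below 1.03%.

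Strand and coverage could be separated in part, since the second quartile holds 50 plus-strand and 75 minus-strand cytosines. There the plus strand was at 1.97% and the minus strand at 0.791% in Day 1 replicate 1, and at 4.80% and 1.16% in replicate 2. In the third quartile replicate 1 showed no such gap, with 0.471% on the plus strand and 0.566% on the minus strand. In the fourth quartile replicate 2 still differed between strands (2.24%, 95% interval 1.70% to 2.90%, against 0.366%, 0.287% to 0.460%). Replicate 1 did not differ beyond counting error there (0.229%, 0.147% to 0.341%, against 0.210%, 0.158% to 0.273%). In the first quartile replicate 1 stood at 6.87% (5.58% to 8.34%) on the plus strand and 1.71% (0.208% to 6.04%) on the minus strand. The minus value rests on 2 of 117 reads, and the intervals overlap. Replicate 2 stood at 7.33% and 2.34% there, and at 3.16% and 0.680% in the third quartile. In replicate 1 a strand gap beyond counting error was therefore seen in the second quartile and not in the third or the fourth. The intervals carry no replicate error. Coverage was not matched between strands within a quartile. In the second, replicate 1 had 1167 reads over 50 plus-strand and 3160 over 75 minus-strand cytosines. In the fourth, replicate 2 had 2498 reads over 27 and 19953 over 101. The part of this in the gaps was not tested.

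The raised level was spread over most of the molecule. The window mean exceeded 1% in 13 of 17 windows in Day 1 replicate 1 and in 16 of 17 in replicate 2. In NSC replicates 1 to 4 it did so in 0, 0, 1 and 1 windows. In Day 1 replicates 3 to 5 the counts were 2, 0 and 1, and in Week 1 replicates 1 to 4 they were 2, 2, 0 and 4. Both raised libraries peaked in the window from 13001 to 14000, at 5.98% and 5.84%, and Day 1 replicate 3 had its highest window there too, at 2.45%. This peak was not particular to them. The same window was the highest in NSC replicate 2 (0.483%), Day 1 replicate 4 (0.427%) and Week 1 replicate 4 (1.89%). Day 1 replicates 1 and 2 were low from 4001 to 5000, at 0% and 0.727%, where none of the 9 kept cytosines is on the plus strand. Replicate 1 was also at 0% from 16001 to 17000, a window of 4 kept cytosines of which 2 are on the plus strand. The raised libraries parted most clearly from 14001 to 15000, at 0.299% in replicate 1, within the NSC range, and 4.97% in replicate 2.

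**Figure D5:**
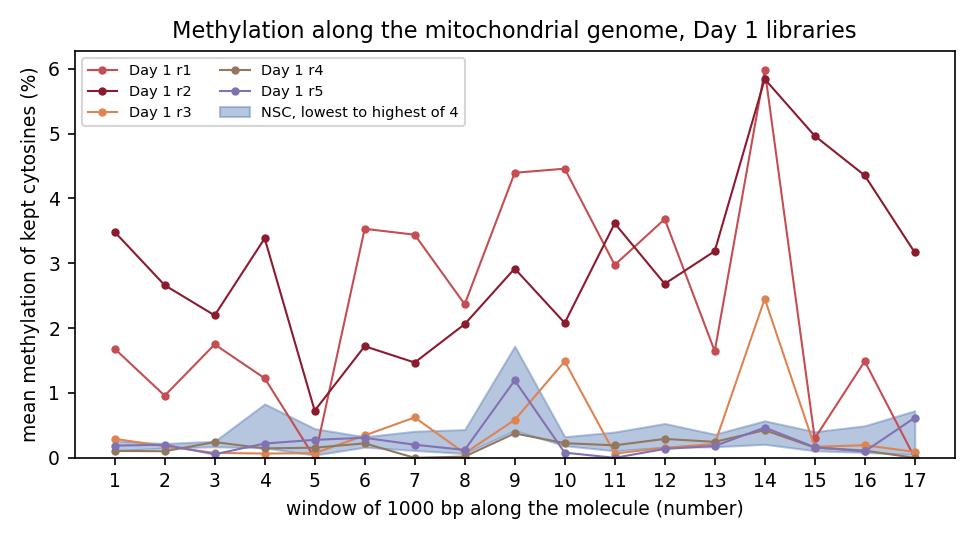
Mean methylation (percent) of kept mitochondrial cytosines in 17 windows of 1000 bp for the 5 Day 1 libraries, with the range of the 4 NSC libraries shaded. Day 1 replicates 1 and 2 both peak in window 14 (5.98% and 5.84%) and both are low in window 5 (0% and 0.727%), with replicate 1 also at 0% in window 17.

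The single positions were mostly not the same in the pair of raised libraries. Above a level of 5% there were 57 cytosines in Day 1 replicate 1, 50 of them on the plus strand, and 104 in replicate 2, 93 of them on the plus strand. The lists shared 19 cytosines, or 33.3% of the first and 18.3% of the second. In the other 3 Day 1 libraries 12, 3 and 3 cytosines exceeded 5%, in NSC 2 to 5, and in Week 1 4 to 13. Above 20% there were 18 in replicate 1 and 9 in replicate 2, all on the plus strand and none shared. The part of thin coverage in these counts and in how little the lists overlap was not tested.

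Among cytosines listed in all 5 Day 1 libraries, the 5 positions that held the most methylated reads in excess of Day 1 replicates 3 to 5 were all on the plus strand. Position 13098, described above, was not listed in Day 1 replicate 1 and so was not ranked. They were chosen by this excess, so their values are a description. At 7038, Day 1 replicates 1 and 2 had 4 of 16 and 6 of 35 reads methylated, the other 3 Day 1 libraries and all 4 NSC libraries had none, and Week 1 replicate 4 had 1 of 9. At 12413 they had 4 of 21 and 6 of 44, and no other library had any. At 8482 they had 3 of 17 and 7 of 47, with 2 of 54 in Day 1 replicate 5 and 1 of 161 in NSC replicate 3. At 8254 and 14002 the excess came almost wholly from replicate 2, with 9 of 24 and 10 of 33, against 1 of 10 and 0 of 11 in replicate 1. In NSC, position 8254 had 4 of 68 in replicate 3, and 14002 had 2 of 127 in replicate 3 and 1 of 66 in replicate 4. Positions 8254 and 8482 lie in the same 1000 bp window and the other 3 in windows of their own.

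Methylation levels of neighbouring cytosines were correlated in the raised libraries. Among neighbours on the same strand within 50 bp, Pearson's r of the methylation level was 0.568 and 0.744 in Day 1 replicates 1 and 2, and 0.547, -0.00204 and -0.0236 in replicates 3 to 5. In NSC it ran from -0.0125 to 0.386 and in Week 1 from -0.0672 to 0.355. These are descriptions over 299 to 306 neighbour pairs in Day 1, and a single read can cover both members of a pair. Pairs of both strands entered the same r, so the strand gap of the raised libraries is part of it. Clustering within a strand was not tested. Of the pairs with a methylated read at either member, 35.4% and 61.4% had one at both in Day 1 replicates 1 and 2. This was 36.7% to 51.1% in NSC and 1.72% to 26.2% in Week 1, and it depends on depth as well.

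Nuclear cytosines of low methylation did not show the same 2 libraries as raised. The comparison used 89395 nuclear cytosines with at most 5% methylation in the pooled NSC reads and at least 50 such reads. NSC is low there by this choice, so only the Day 1 libraries are compared among themselves. They stood at 1.74%, 1.44%, 1.56%, 1.86% and 1.66% in replicates 1 to 5, so replicates 1 and 2 lay within or below the range of the other 3. The mitochondrial share of reads did not set the pair apart either: replicate 1 had the lowest share of the Day 1 libraries and replicate 2 the highest.

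Methylated reads were sparse at most positions. Of the 512 cytosines, 18 had no methylated read in any library and 99 had at least 1 in every group. The mean level over all libraries that listed a cytosine, Day 1 replicates 1 and 2 included, exceeded 1% at 97 cytosines, 2% at 38 and 5% at 5. The highest mean was at position 8686 on the minus strand, at 14.4%. There NSC replicates 1 to 4 had 26 of 125, 2 of 53, 13 of 77 and 20 of 37 reads methylated, and Day 1 replicate 5 had 32 of 91. In NSC these were 20.8% (95% interval 14.1% to 29.0%), 3.77% (0.460% to 12.98%), 16.9% (9.31% to 27.1%) and 54.1% (36.9% to 70.5%), so the 4 control libraries differed beyond counting error. Day 1 replicates 1 to 4 had 2 of 12, 2 of 108, 1 of 6 and 2 of 20, and Week 1 had 1 of 36 in all. Position 8686 did not follow the pattern of the raised libraries, since Day 1 replicate 2 was at 1.85% there. It was not called in any contrast (adjusted p = 0.977 for Day 1 and 0.717 for Week 1 against NSC, logistic model adjusted over all cytosines), and its plus-strand partner was not kept.

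The next 2 highest means rested on few reads. At 12876 (minus strand, mean 7.42%) Week 1 replicate 1 had 4 of 5 reads methylated and NSC replicate 1 had 7 of 90, and 9 of the other 10 libraries that listed it had none. At 13579 (plus strand, 5.33%) the methylated reads were those of the 4 libraries given above, and no NSC library had any in 371 reads.

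No mitochondrial cytosine differed between groups at an adjusted p below 0.05 in the main test. The test was a logistic model on methylated and unmethylated reads with overdispersion, fitted to all 514813 kept cytosines and adjusted over them (Benjamini-Hochberg). Between Day 1 and NSC it called 0 of 512 mitochondrial cytosines, against a background of 1.28% of all cytosines, and 75 (14.6%) had an unadjusted p below 0.05, against 17.0% of all cytosines. Between Week 1 and NSC it called 0 against a background of 0.125%, with 12 (2.34%) at an unadjusted p below 0.05, against 12.8%. Between Week 1 and Day 1 it called 0 against a background of 0%, with 14 (2.73%) unadjusted, against 5.03%. The smallest adjusted p-values in the logistic model were 0.0571 for Day 1 against NSC, at position 3379 on the minus strand, and 0.152 for Week 1 against NSC, at position 5435 on the minus strand. At 3379 all methylated reads came from Day 1 replicates 2 (5 reads, 3.97%) and 5 (2 of 118). At 5435 they came from Week 1 replicates 3 (2 of 85) and 4 (1 of 37). At these levels and depths, a count of 0 calls does not show that levels were equal.

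Other dispersion estimates did call mitochondrial cytosines. For Day 1 against NSC the share called by edgeR lay above that of the whole table. The quasi-likelihood test of edgeR called 31 of 512 between Day 1 and NSC, 30 higher and 1 lower in Day 1, against a background of 1.28%. In 27 of the 31, a single Day 1 library held as many methylated reads as the other 4 together, or more. It called 5 between Week 1 and NSC, all higher in Week 1, against a background of 0.499%, and in all 5 a single Week 1 library did so. It called 0 between Week 1 and Day 1, against 0.00622%, with 48 (9.38%) at an unadjusted p below 0.05, against 3.71% of all cytosines. Between Day 1 and NSC, edgeR had 158 (30.9%) at an unadjusted p below 0.05, against 12.7% of all cytosines. Here the 2 tests differed, since the logistic model had 14.6% against 17.0%. Between Week 1 and NSC, edgeR had 42 (8.20%) unadjusted, against 9.70%. Without Day 1 replicates 1 and 2 the logistic model again called 0 mitochondrial cytosines in Day 1 against NSC, but it then called only 1 cytosine in the whole table (0.000194%).

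The direction of the group means was mixed and small. Day 1 was above NSC at 323 cytosines and below at 168, with a median difference of 0.234 points, against 1.44 points over all cytosines in the table. Week 1 was above NSC at 118 and below at 311, with a median of -0.0828 points, against 0 over all cytosines. Week 1 was below Day 1 at 335 and above at 86, with a median of -0.312 points, against 0. NSC libraries were also the deepest, and the part of depth in these counts was not tested.

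Among the 427 cytosines listed in all files, none had every Day 1 or every Week 1 library above all NSC libraries, against 7.16% and 6.29% of all cytosines listed in all files. Groups that did not overlap in the other direction were found at 5 cytosines (1.17%) for Day 1, against a background of 2.48%, and at 21 (4.92%) for Week 1, against 3.24%. In 4 of the 5 and 20 of the 21, the surgical group had no methylated read at all. The 5 and 21 cytosines had a median coverage of 348 and 340 reads, against 114 over all 427. Of them, 5 and 18 were on the minus strand. NSC libraries were the deepest, and the part of depth in these counts was not tested. Week 1 and Day 1 did not separate at any cytosine in either direction, against 0.347% higher and 1.37% lower.

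The largest of these falls were under 1.1 percentage points. The positions were chosen by their fall, so their values are a description. The bounds given pool the reads of a group and carry no variation between libraries. Position 15921 on the minus strand had 22 methylated of 5056 reads, 13 of 2583, 7 of 2536 and 7 of 1449 in NSC and none in 2385 reads of Day 1, which allows a level of up to 0.126% (3 counts over the group), against 0.422% of pooled NSC reads. Its group means differed by -0.424 points, and its adjusted p in the logistic model was 0.0709. Position 13551, also on the minus strand, had 20 of 4903 reads methylated in NSC and none of 1067 in Day 1, which allows up to 0.281%, with a difference of -0.474 points. For Week 1 the largest falls were at 12201 (-1.08 points) and 2346 (-0.654 points), both on the minus strand. Week 1 had none of 178 and none of 255 reads methylated there, which allows up to 1.69% and 1.18%, above the pooled NSC levels of 0.811% and 0.607%. These Week 1 falls were therefore not detectable at this depth.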

How the data were processed

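Each deposited file gives, per CpG cytosine, a methylated read count, a total read count and the authors' percent derived from them, as the values show; every listed cytosine had at least 5 reads. Per the submitters' processing notes, the build was mRatBN7.2 and the tools included Bismark 0.23.0, methylKit 1.14.2, FastQC and Trim Galore, without roles. Methylation was recomputed as methylated over all reads from the deposited counts, and the authors' percent column entered no result. No sequence or gene annotation of chrM was used here, so positions are given by coordinate and 1000 bp window.

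Library values were compared by exact two-sided permutation tests and strand values by exact sign-flip tests over 13 libraries. Single cytosines were tested with a logistic model (McCullagh-Nelder dispersion, not below 1, F test) over all 514813 kept cytosines, with edgeR 4.0.16 (R 4.3.3) and limma 3.58.1 (squeezeVar) as alternatives. The model was also run on simulated counts that had no extra variation between libraries. The changed cytosines there had intermediate levels, far above those on chrM, and power after adjustment over the whole table was low. That run therefore cannot show how the model behaves on the mitochondrial counts. Named cytosines were the 3 with highest and lowest coverage and the 3 with highest mean level, the 5 with the largest Day 1 excess, the 2 largest rises and falls without overlap per contrast, those with the smallest p, and the 3 pairs with the largest strand difference. Members and lists were chosen with earlier results of these data known. Python 3.11.15, numpy 2.4.6, scipy 1.17.1 and pandas 2.3.3 were used.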

Additional observations from a re-analysis of the deposited data

Results flagged for a closer look

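The 98 mitochondrial cytosines that were listed in too few files to be kept had a higher share of methylated reads in some surgical libraries than in any NSC library. Their pooled level was 12.8% in Day 1 replicate 1 (74 of 576 reads) and 8.61% in Day 1 replicate 2 (243 of 2821 reads), while the highest NSC library was at 2.16%. Week 1 replicate 4 was at 6.25%, on 3 of 48 reads (95% exact interval 1.31% to 17.2%), so its interval reaches the NSC level. Day 1 replicates 3 to 5 were at 0.376%, 0.640% and 1.78%. Of these 98 cytosines, 84 are on the plus strand.

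The log2 ratio of minus-strand to plus-strand coverage differed from NSC in both surgical groups, by -0.18 in Day 1 and by -0.32 in Week 1 (exact permutation tests, adjusted p = 0.0429 for each). On the pairs listed in all files neither passed after adjustment. The surgical libraries were shallower, and a pair enters a library only where both strands have at least 5 reads; the part of this in the difference was not tested. Among 21 sets of library values checked for a single library far from the others of its group, none was found. Such a check can miss libraries that are raised together, as Day 1 replicates 1 and 2 were in mean methylation (2.38% and 3.005%). It therefore does not show that no library was unusual.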

How the results depend on the processing

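The directions of the mitochondrial share and the strand coverage ratio held under every alternative run. The strand methylation difference kept its sign as a mean over libraries. With the median over pairs, the sign-flip test gave that sign no support. The Day 1 share difference from NSC did not pass over kept cytosines (-1.27) or with at least 10 reads (-1.10). It was -1.58 without Day 1 replicates 1 and 2. The exact permutation p there, 0.0571, is the smallest that 3 against 4 libraries allow, so that run could not pass. With 1 library left out the difference ran from -1.86 to -1.41. Leaving out any 1 of the 4 NSC libraries gave an adjusted p of 0.0857, but no adjusted p below 0.05 can be reached there. The Week 1 share difference did not pass after adjustment over kept cytosines (-2.49) or with at least 10 reads (-1.83). Its exact permutation p stayed at 0.0286 in both, the smallest that 4 against 4 libraries allow. The adjusted p rose with the Day 1 p in the same adjustment. The Week 1 difference ran from -2.59 to -1.97 with 1 library left out, where 3 against 4 libraries cannot go below an exact p of 0.0571. The strand methylation difference was -0.292 points, exact p = 1, as a median over pairs, and -0.951 to -0.505 with 1 library left out; the coverage ratio ran from 1.58 to 1.62.

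The Week 1 difference from NSC in mean methylation, 0.0303 points, changed sign over cytosines listed in all files (-0.0141), over every listed cytosine (-0.250), with at least 10 (-0.00952) or 20 reads (-0.0638), as a median over cytosines (-0.0157) and without Week 1 replicate 4, with a range from -0.00713 to 0.0662 when 1 library was left out. The Day 1 difference changed sign as a median over cytosines (-0.0157) and without Day 1 replicates 1 and 2 (-0.0245), and ran from 0.499 to 1.21 with 1 left out, the lowest without replicate 2. Week 1 against Day 1 became 0.0548 without that pair of libraries and ran from -1.17 to -0.469. None of these passed a test, and the cause of the sign changes was not tested.

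The count of mitochondrial cytosines called between Day 1 and NSC was 0 in the main run. It became 31 of 512 with edgeR and 14 of 512 with a moderated dispersion, where 1.28% and 6.60% of the whole table were called. With at least 10 reads it became 6, against 1.35% of the whole table, although only cytosines that met this limit were tested. Over cytosines listed in all files it became 9 of 427, where 3714 of the 42935 cytosines tested were called. For Week 1 it became 5 with edgeR and 2 with a moderated dispersion, against 0.499% and 2.84%. Leaving out each library in turn gave 0 in all 3 contrasts. Leaving out Day 1 replicates 1 and 2 together, and the share over cytosines listed in all files, were chosen after seeing the data. No paired analysis was possible because replicate numbers follow accession order and link no samples across groups. Depth limits single cytosines most in Week 1, whose median coverage was 22 to 61.5 reads.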
